A study of Mus musculus with 278 samples.

Results

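In single mouse cells labelled as keratinocytes, 10 members of the transforming growth factor beta (TGF-beta) pathway were followed: the ligands Tgfb1, Tgfb2 and Tgfb3, the receptors Tgfbr1 and Tgfbr2, the signal transducers Smad2, Smad3 and Smad4, the inhibitory Smad7, and Tgfbi, a secreted matrix protein named for its induction by TGF-beta. They were chosen by symbol out of the 14145 genes of the deposited table. All 10 were present, and all 10 were among the 12355 genes tested, which exceeded TPM 1 in more than 5 cells. TPM is a transcript level per gene length, scaled so that the values of every cell sum to 1000000.

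The study co-cultured WT keratinocytes from adult dorsal mouse skin with K14ΔNβ-cateninER keratinocytes at 9 to 1, and asked how cells respond to neighbours in which beta-catenin is switched on. The transgene is driven by the keratin 14 promoter and activated by 4-hydroxy-tamoxifen (4OHT). Untreated co-cultures received DMSO and treated co-cultures 200 nM 4OHT for 24 h, so that both conditions held cells of both genotypes. Cells were captured on a microfluidic chip and sequenced singly, and transgenic cells were not told apart here. The library names fall into 2 series, AG and GHA501A, whose meaning the labels do not give. AG had 66 untreated and 64 treated cells, and GHA501A had 71 untreated and 69 treated cells. A further 8 cells were left out because their treatment label contradicted the name of their library.

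TGF-beta ligands are secreted in a latent form and, once released, bring the type II receptor Tgfbr2 together with the type I receptor Tgfbr1. The activated type I receptor phosphorylates Smad2 and Smad3, which enter the nucleus with Smad4 and bind DNA at short GTCT- or CAGA-containing sites, whereas Smad7 blocks the receptor. In skin the pathway is known as a brake on keratinocyte growth and as a driver of matrix production in dermal fibroblasts.

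The 4 library sets differed in more than treatment. Every AG cell had Krt14, the basal keratinocyte keratin, over TPM 1, with set medians of 4864 and 4997 in untreated and treated cells. The summed level of 11 keratinocyte markers, Krt14 included, ranged from 706 to 33441 in AG. Of these 11 markers, Itgb4 was listed at 0 in all 130 AG cells. It was over TPM 1 in 11.3% and 15.9% of GHA501A untreated and treated cells. In GHA501A the median Krt14 level was 2.25 in untreated and 10.1 in treated cells, whereas Col1a1, a fibroblast collagen, had medians of 1123 and 909. Most GHA501A cells thus went against their keratinocyte label. Cells were therefore also described by a range: a Krt14 range (Krt14 over TPM 100, Col1a1 at most 100) and a Col1a1 range (the reverse). The Krt14 range held 64, 59, 8 and 10 cells in AG untreated, AG treated, GHA501A untreated and GHA501A treated cells, and the Col1a1 range held 0, 0, 60 and 49. These are cuts on 2 genes and not cell types. In GHA501A untreated and treated cells, 5 and 8 had Krt14, and 11 and 10 had Col1a1, between TPM 30 and 300. Both genes were over the cut in 2, 4, 2 and 10 cells, which entered neither range. Medians of 6008 to 6392 genes were over TPM 1 per cell in the 4 sets.

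The series also listed genes differently. In AG, 398 genes (2.81% of the table) had TPM over 1 in at most 5% of the cells of both sets but in at least 50% of the cells of both GHA501A sets, and 86 genes (0.608%) showed the reverse. The first group holds the ribosomal protein genes Rpl31, Rps24 and Rpl35a and the translation factors Eif5a and Eif4a1, each over TPM 1 in 100% of GHA501A cells. Tgfb1, Tgfbr2 and Smad2 were likewise near 0 in AG, so for these 3 members only the listed values are given, without a fold between series. The part that this listing played in any difference between the series was not tested.

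The windows before the start sites of 3 members are shown because differences between series or ranges turned on these members. They are the 250 bases upstream of the RefSeq start (GRCm38.p6), read in the direction of the gene, with each CAGAC or its reverse complement GTCTG and each TATAAA in capitals. For Tgfbi the 63 bases that GENCODE M21 places inside the gene were left off.
Tgfb2, chr1:186705990-186706239, minus strand: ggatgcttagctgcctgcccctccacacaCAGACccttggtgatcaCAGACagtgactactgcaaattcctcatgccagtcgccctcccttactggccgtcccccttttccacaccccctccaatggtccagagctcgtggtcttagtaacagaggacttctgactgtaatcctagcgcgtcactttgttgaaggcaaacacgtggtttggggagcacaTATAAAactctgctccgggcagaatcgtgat
Tgfbr2, chr9:116175364-116175613, minus strand: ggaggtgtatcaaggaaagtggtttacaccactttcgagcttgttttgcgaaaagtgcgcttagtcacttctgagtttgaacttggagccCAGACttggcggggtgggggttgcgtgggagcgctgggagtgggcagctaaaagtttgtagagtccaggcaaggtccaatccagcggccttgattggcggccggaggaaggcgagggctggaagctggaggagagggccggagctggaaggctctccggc
Tgfbi, chr13:56609336-56609522, plus strand: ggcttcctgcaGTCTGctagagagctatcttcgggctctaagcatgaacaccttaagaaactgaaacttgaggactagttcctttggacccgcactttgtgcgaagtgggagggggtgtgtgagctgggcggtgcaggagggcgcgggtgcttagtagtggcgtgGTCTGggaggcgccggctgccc

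The Tgfb2 window held CAGAC 221 and 204 bases and TATAAA 31 bases before the start. CAGAC or GTCTG stood 239 and 85 bases before the RefSeq start of Tgfbi, which lies 63 bases past the end of the printed stretch, and 160 bases before the Tgfbr2 start. On either strand, CAGAC occurred in 42.2% and TATAAA in 12.4% of all 32851 windows of 250 bases, so these matches are descriptions only. The windows of Tgfb1, Smad3 and the first start of Tgfbr1 held neither motif.

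The order of the levels was much the same in the 4 sets for the 7 members seen in both series. Tgfbi, Smad3 and Smad4 were the highest, followed by Tgfb3, Tgfbr1, Smad7 and Tgfb2 in an order that varied between sets. Between neighbours in the order of these 7, the mean log2(TPM + 1) over cells differed by at most 1.51, and 0 of the 24 gaps exceeded the larger SD of single cells of the pair. The SD of single cells was 1.72 to 3.28 for these 7 members.

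**Figure D1:**
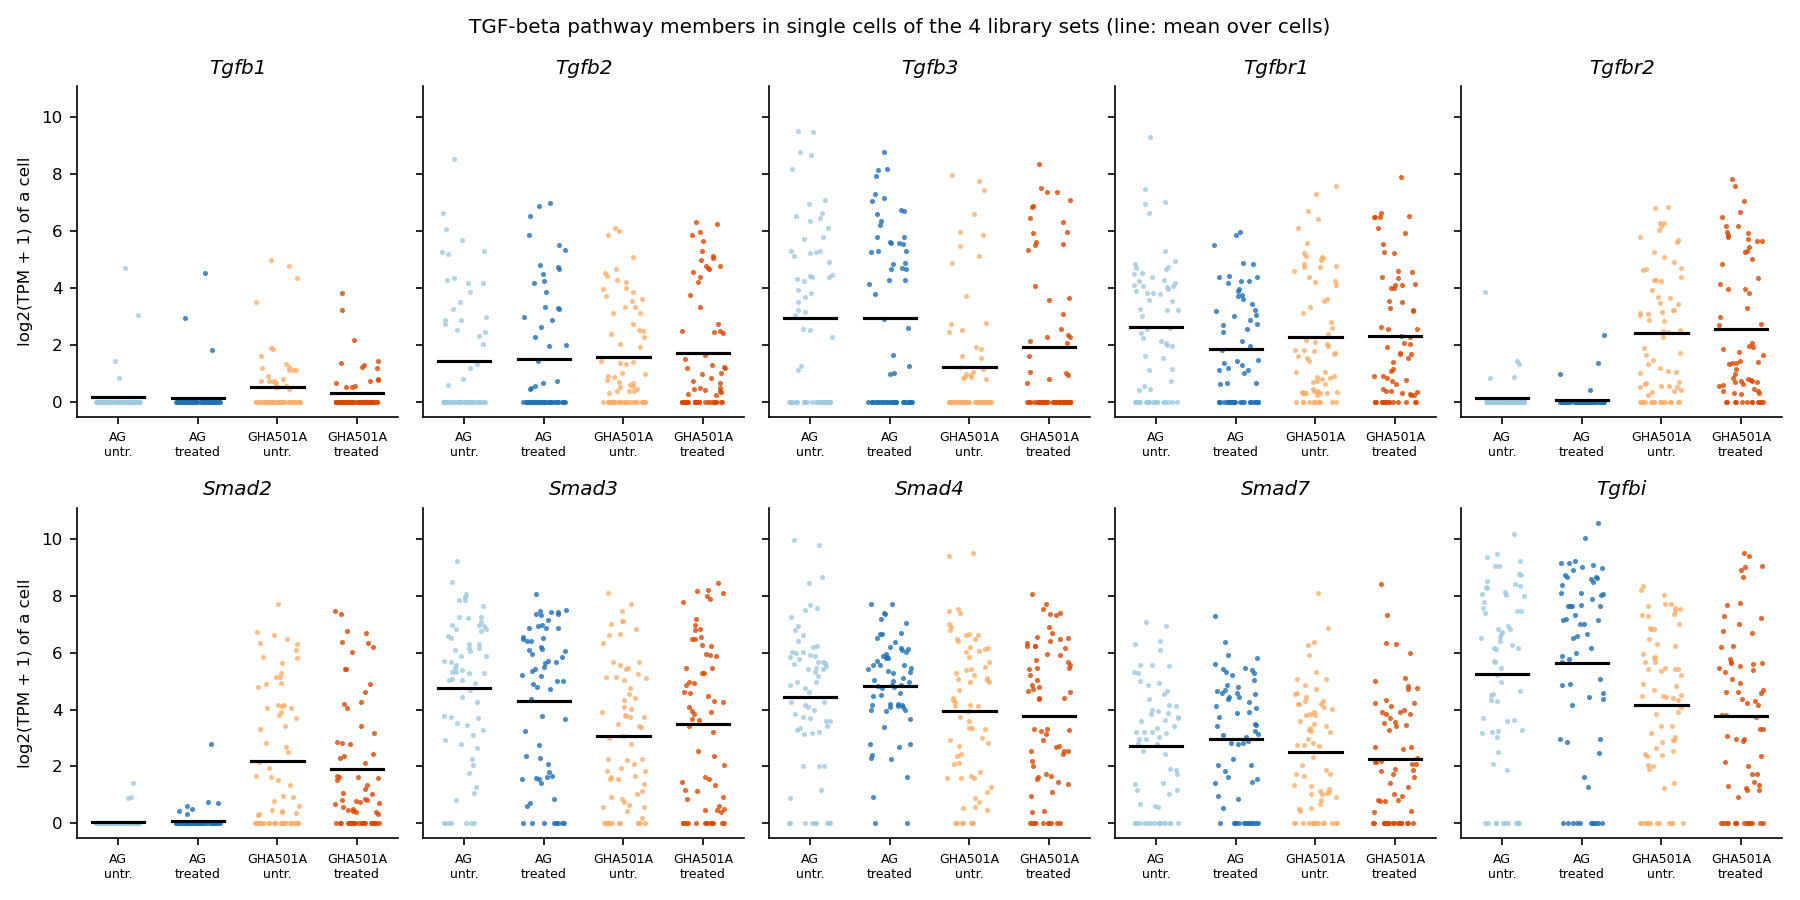
Level of the 10 members in each single cell, as log2(TPM + 1), for the 66 untreated and 64 treated AG cells and the 71 untreated and 69 treated GHA501A cells, with a line at the mean over cells. Tgfb1, Tgfbr2 and Smad2 lie at or near 0 in nearly every AG cell, and the other members spread from 0 upwards in every set.

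Among the ligands, Tgfb1 (chr7:25687002-25705077, plus strand), the form best known from platelets and immune cells, was the least seen. It was over TPM 1 in 4.55% and 4.69% of AG untreated and treated cells, and in 18.3% and 11.6% of GHA501A untreated and treated cells. The median was 0 in every set, and the highest cell reached 24.9, 22.2, 30.4 and 13.2 TPM in that order. The Wilson 95% interval of the highest share was 11% to 28.8%. These intervals cover the counting of cells only, since TPM holds no depth.

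Tgfb2 (chr1:186622792-186705989, minus strand) was over TPM 1 in 36.4% and 35.9% of AG untreated and treated cells and in 43.7% and 43.5% of GHA501A untreated and treated cells. The lowest cell was at 0 in each set, the medians were 0, 0, 0.620 and 0.401 TPM, and the highest cells reached 367, 126.1, 67.7 and 79.9 TPM. The sets overlapped fully, and in AG untreated cells 1 cell made up 43.5% of the summed level. In AG treated cells, those numbered 90 and 91 had close values in every member. Tgfb2 was at 126.1 and 116.9 TPM, Smad3 at 43.8 and 48.2, Smad4 at 21.5 and 21.7 and Tgfbi at 6.71 and 6.78. They were counted as separate cells throughout, and whether they are 1 cell was not tested. GENCODE places an antisense gene, Gm29491, over 124 exonic bases of Tgfb2, and whether reads were counted by strand is not given in the sources used here.

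Tgfb3 (chr12:86056745-86079041, minus strand) was the ligand with the highest mean, 57.6 and 43.4 TPM in AG untreated and treated cells and 14.3 and 25.5 TPM in GHA501A untreated and treated cells. It was over TPM 1 in 57.6% and 54.7% of AG cells against 29.6% and 40.6% of GHA501A cells. The medians were 6.07 and 3.59 TPM in AG and 0 in both GHA501A sets, with the highest cell between 253.5 and 733 TPM. Here too, 2 transcripts of the opposite strand, Gm37804 and Gm48008, share exonic bases with the gene.

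Most cells held few of the ligands at once. In AG, 49.2% of the 130 cells had 1 ligand over TPM 1, 21.5% had 2, 1.54% had 3 and 27.7% had none. In the Col1a1-range cells of GHA501A the figures were 47.7%, 22.9%, 1.83% and 27.5%. In the 18 Krt14-range cells of GHA501A, 50% had 1 ligand, 5.56% had 2 and 44.4% had none. Tgfb2 and Tgfb3 were found together in 20.8% of AG and 19.3% of Col1a1-range cells. In the 18 Krt14-range cells of GHA501A the count was 0, which only restates that Tgfb2 was over TPM 1 in 0 of them. Tgfb1 is near 0 in AG, so the AG counts rest almost wholly on Tgfb2 and Tgfb3.

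Of the receptors, Tgfbr1 (chr4:47353222-47414931, plus strand), the type I kinase, was over TPM 1 in 66.7%, 57.8%, 57.7% and 58% of AG untreated, AG treated, GHA501A untreated and GHA501A treated cells. Its medians were 4.96, 1.5, 2.21 and 2.24 TPM and its means 25.5, 7.61, 15.8 and 17.5 TPM. The high mean of AG untreated cells rested in part on 1 cell of 640 TPM, which gave 38% of the set's sum. Tgfbr2 (chr9:116084293-116175360, minus strand), the ligand-binding type II receptor, was over TPM 1 in 63.4% and 58% of GHA501A untreated and treated cells, with medians of 3.83 and 1.73 TPM and highest cells of 115.2 and 227 TPM. In AG it was listed over TPM 1 in 3 of 66 untreated and 2 of 64 treated cells, with highest cells of 13.4 and 4.16 TPM.

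Both receptors were over TPM 1 in 31.2% of the Col1a1-range cells of GHA501A (Wilson 95% interval 23.3% to 40.4%). The product of the 2 separate shares is 31.3%, so the receptors met in single cells about as often as their shares alone give. In the 18 Krt14-range cells of GHA501A the share was 61.1% (38.6% to 79.7%), against a product of 60.2%, but it joins 7 of 8 untreated cells (87.5%) and 4 of 10 treated cells (40%). In AG the pair could not be read because Tgfbr2 was near 0. The share of cells with both receptors, Smad4, and Smad2 or Smad3 was 26.6% in the Col1a1 range of GHA501A. In its Krt14 range 6 of 8 untreated cells (75%) had all of these, against 4 of 10 treated cells (40%).

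Smad3 (chr9:63646767-63757994, minus strand), which binds DNA directly, was over TPM 1 in 87.9% and 82.8% of AG untreated and treated cells and in 71.8% and 69.6% of GHA501A untreated and treated cells. Its medians were 39 and 35.7 TPM in AG against 7.04 and 13.3 TPM in GHA501A, and its highest cells reached 598, 264, 272 and 350 TPM. Smad2, the other receptor-activated Smad, was over TPM 1 in 49.3% and 47.8% of GHA501A untreated and treated cells, with medians of 0.955 and 0.763 TPM. In AG it was listed over TPM 1 in 1 of 66 and 1 of 64 cells.

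Smad4, the common partner of the activated Smads, was among the most widely seen members. It was over TPM 1 in 84.8% and 95.3% of AG untreated and treated cells and in 83.1% and 81.2% of GHA501A untreated and treated cells, with medians of 29.1, 31.2, 16.7 and 19.7 TPM. In AG the mean TPM was lower in treated cells (48 against 77.7), although the median was not, and 1 untreated cell of 998 TPM gave 19.5% of its set's sum. Smad3 and Smad4 were together over TPM 1 in 77.7% of AG cells, 77.8% of Krt14-range and 56.9% of Col1a1-range cells of GHA501A.

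Smad7, which is itself induced by TGF-beta and closes a negative feedback loop, had medians of 6.95, 8.17, 5.52 and 2.79 TPM in AG untreated, AG treated, GHA501A untreated and GHA501A treated cells. Its means were closer, at 16.7, 17.2, 16 and 16.3 TPM, and 1 cell gave 24.4% and 30.4% of the sum in the GHA501A sets. It was over TPM 1 in 71.2%, 73.4%, 70.4% and 60.9% of these cells.

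Tgfbi (chr13:56609523-56639562, plus strand) had the highest mean TPM of the members in every set, although in GHA501A treated cells its median was below those of Smad3 and Smad4. Its medians were 69.2 and 113.9 TPM in AG untreated and treated cells and 21.4 and 13 TPM in GHA501A untreated and treated cells, and its means were 154.3, 203, 57.6 and 76.9 TPM. The highest cells reached 1151, 1526, 323 and 725 TPM, and cells at 0 were present in each set. About as many cells had it over TPM 1 in each, at 83.3%, 82.8%, 83.1% and 78.3%.

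The first comparison asked whether 4OHT treatment moved the members. None passed the test. Means over the cells of a set, as log2(mean TPM + 1), were compared with limma over the 4 sets with the series as a block, at a Benjamini-Hochberg adjusted p under 0.05 and an absolute difference over 0.5. Of the 12355 genes tested 0 passed (0%), and 486 had an unadjusted p under 0.05, none of them a member. The labels do not say that the sets are separate cultures or animals, so these p-values measure only the spread between the sets.

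Treated minus untreated, the largest member difference was that of Tgfbr1 (-0.74, SE 0.54, 95% interval -2.07 to 0.59). Smad4 followed (-0.54, SE 0.29, -1.27 to 0.18), then Tgfbi (0.40, SE 0.25, -0.21 to 1.01) and Tgfb1 (-0.38, SE 0.37, -1.28 to 0.52). For Smad7 the difference was 0.04 (SE 0.39, -0.93 to 1.00). The limma adjusted p of every member was at least 0.998. The intervals are wide. For 8 members they hold a difference of 0.5 in either direction, whereas that of Smad4 ended at 0.18 above and that of Tgfbi at -0.21 below. The median over the members was 0.08 against -0.0009 over all genes.

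Within the series the members did not move as a group. In AG, Tgfbr1 was lower in treated than untreated cells by -1.62, Smad4 by -0.69, Tgfb3 by -0.40 and Smad3 by -0.38, and Tgfbi was higher by 0.39. In GHA501A, Tgfb3 was higher by 0.79, Smad3 by 0.73, Tgfb2 by 0.49 and Tgfbi by 0.41, and Smad4 was lower by -0.40. On this log2(mean TPM + 1) scale directions were opposite for 6 members and the same for 4. The count depends on the scale. With log2(TPM + 1) averaged over cells, Smad4 rose in AG (4.45 to 4.84). Tgfbi and Smad7 then fell in GHA501A (4.16 to 3.79 and 2.52 to 2.24). Tgfb2 rose in AG (1.44 to 1.52) as in GHA501A (1.58 to 1.70). With 1 pair of sets per series, no test of a difference between the series was possible.

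**Figure D2:**
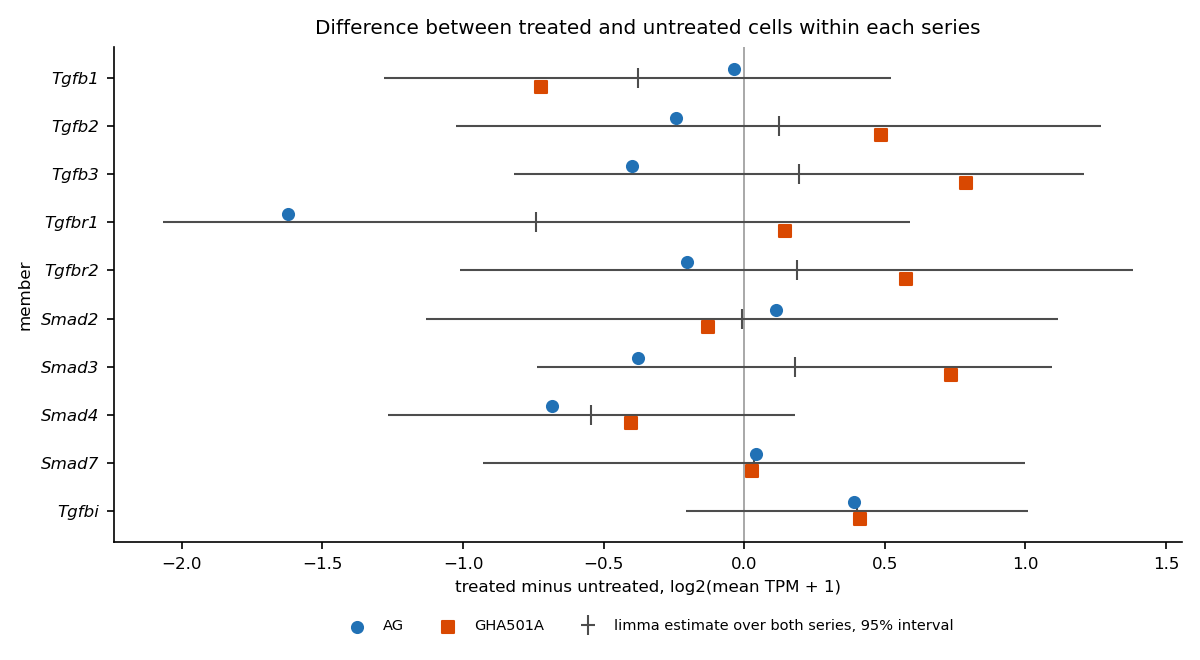
Treated minus untreated difference of each member on the log2(mean TPM + 1) scale, in AG (circles) and GHA501A (squares), with the limma estimate over both series and its 95% interval (bars). Every interval holds 0, and for Tgfbr1 the series stand apart at -1.62 and 0.14.

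In the 57 other genes of the pathway that were tested (7 lists of ligands, latency and activation, receptors, other Smads, intracellular regulators, secreted antagonists and response genes), 0 rose or fell with treatment by limma, and 4 had an unadjusted p under 0.05. Their median difference was -0.05.

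The second comparison was between the series, which are library sets and not a condition of the study. Tgfbi was called higher in AG, by 1.40 (SE 0.25, 95% interval 0.79 to 2.0, limma adjusted p = 0.0082). Both AG sets lay above both GHA501A sets in mean TPM, 154.3 and 203 against 57.6 and 76.9. It was the only member called higher, 1 of 10 against 13.6% of all genes, a share below that background. With any 1 set left out the difference was 1.19 to 1.60, but the limma adjusted p rose to 0.062 to 0.105. Tgfb3 was also higher in AG, by 1.34 (SE 0.41, 0.33 to 2.36), and missed the threshold (limma adjusted p = 0.052). It passed in 4 of 12 alternatives, over which the limma adjusted p ran from 0.00012 to 0.250.

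Smad2 and Tgfbr2 were called lower in AG (limma adjusted p = 0.0019 and 0.0022), where they are listed near 0, against 20.1% of all genes called lower. Of the 130 AG cells, 2 had Smad2 and 5 had Tgfbr2 over TPM 1. Both thus passed the filter of more than 5 cells only through GHA501A, so no difference in expression is read from these calls. The Tgfbr2 call was lost without the AG untreated or the AG treated set (limma adjusted p = 0.053 in both). The remaining members did not pass. Their differences were 0.71 for Smad3 (95% interval -0.21 to 1.62), 0.47 for Tgfb2 (-0.68 to 1.61), 0.35 for Smad4 (-0.37 to 1.07), 0.07 for Smad7 (-0.90 to 1.03) and -0.22 for Tgfbr1 (-1.55 to 1.11). The median of all genes was -0.01. Since nearly all AG cells were in the Krt14 range and most GHA501A cells in the Col1a1 range, series and range cannot be told apart in this comparison.

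Of the 57 other pathway genes, 8 were higher and 20 lower in AG, against 33.7% of all genes called in either direction. Higher were Thbs1 (thrombospondin-1, which can release TGF-beta from its latent form) by 5.90 (SE 0.44, limma adjusted p = 0.00066), Ctgf, a classical TGF-beta response gene, by 3.52 (SE 0.53, 0.0046) and Tnc (tenascin C) by 3.43 (SE 0.37, 0.0016). Lower was Ltbp1, which tethers latent TGF-beta to the matrix, by -5.42 (SE 0.46, 0.00083). Its log2(mean TPM + 1) in AG was only 0.44 in untreated and 0.39 in treated cells. The size of its difference therefore depends on the pseudocount. Gdf11, a TGF-beta family ligand, and Skil, a repressor of Smad activity, were also called lower (limma adjusted p = 0.00055 and 0.00068) and are listed near 0 in AG. As for Smad2 and Tgfbr2, the calls of Gdf11 and Skil are not read as a difference in expression. Of the 28 genes called, 6 were near 0 in AG. The 17 response genes as a list had 3 higher and 7 lower in AG, with a median of -0.98.

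The third comparison set the ranges of GHA501A against each other, where cells of both ranges came from the same sets, and Tgfb2 showed the clearest contrast. Its limma fit also held the Krt14-range means of AG, so the spread and treatment term behind its p-values draw on AG. In the Krt14 range 0 of 8 untreated and 0 of 10 treated cells had Tgfb2 over TPM 1, which together allows a share of up to 16.7%. The 8 untreated cells were all listed at 0, and the highest of the 10 treated cells was at 0.669 TPM. In the Col1a1 range 31 of 60 untreated and 24 of 49 treated cells were over TPM 1, or 51.7% and 49%, with means of 7.98 and 10.5 TPM and highest cells of 67.7 and 79.9 TPM. The ranges overlap, since 29.4% of the Col1a1-range cells were also listed at 0.

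On the log2(mean TPM + 1) scale Tgfb2 was lower in the Krt14 range in both sets, by -3.17 among untreated and -3.36 among treated cells. The limma estimate was -3.26 (SE 0.55, 95% interval -4.66 to -1.86) with an adjusted p of 0.054, so it missed the threshold. The size depends on the pseudocount because the lower group is at or near 0. Smad7 had the next smallest p, lower by -1.52 and -1.11 in the 2 sets (estimate -1.32, SE 0.51, limma adjusted p = 0.252). In all 0 of 10 members were called, against 2.77% of all genes (1.3% higher and 1.47% lower).

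The other members split between the sets or had wide intervals. Tgfbr2 was higher in the Krt14 range in both sets, by 1.43 and 0.57 (estimate 1.00, 95% interval -0.48 to 2.47), and all 8 untreated Krt14-range cells were over TPM 1, from 2.75 to 64.9 TPM. Tgfb3 was lower by -2.95 among untreated and -0.43 among treated cells (-1.69, -4.18 to 0.80). For Tgfbr1, Smad3, Smad4 and Tgfbi the direction differed between the sets. The direction was the same in both sets for 6 of the members. The median of all 10 members was -0.08 against -0.17 for all genes.

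**Figure D3:**
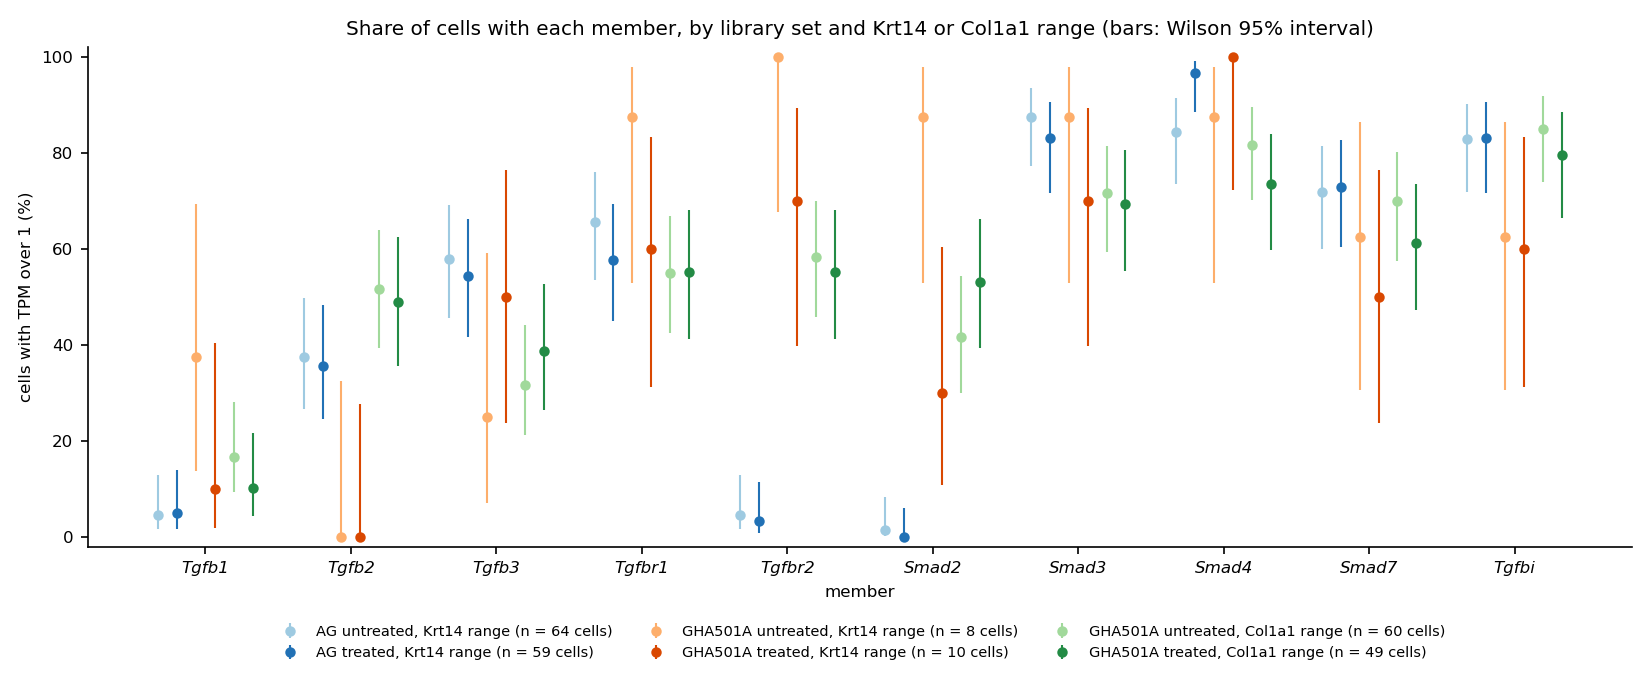
Share of cells with TPM over 1 for each member, as percent with Wilson 95% intervals, in the Krt14-range cells of the 4 sets and the Col1a1-range cells of both GHA501A sets. Tgfb2 is at 0% in the 8 and 10 Krt14-range cells of GHA501A and between 35.6% and 51.7% elsewhere.

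Among the 57 other pathway genes 0 were higher and 6 lower in the Krt14 range, against 1.47% of all genes called lower. Named by size, Acta2 (smooth muscle actin, a myofibroblast marker) was lower by -6.33 (SE 0.37, limma adjusted p = 0.0089), Lox (lysyl oxidase, a collagen cross-linker) by -5.26 (SE 0.70, 0.035) and Fstl3 (a binder of activin) by -4.58 (SE 0.69, 0.046). The median over the 57 was -0.62. The summed level of 5 fibroblast markers had medians of 12.3 and 49.9 TPM in the Krt14 range of untreated and treated cells. In the Col1a1 range they were 1678 and 1293 TPM. That sum includes Col1a1, on which the ranges were cut, so its contrast was largely fixed by the cut. Col1a2, not used in the cut, had medians of 0.854 and 3.82 TPM in the Krt14 range and 121.9 and 104.9 TPM in the Col1a1 range. Those of Col3a1 were 1.91 and 4.15 against 107.7 and 108.4 TPM. The part of such markers in these differences was not tested. With any 1 set left out, or with the library set as a block, limma called 0 genes.

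**Figure D4:**
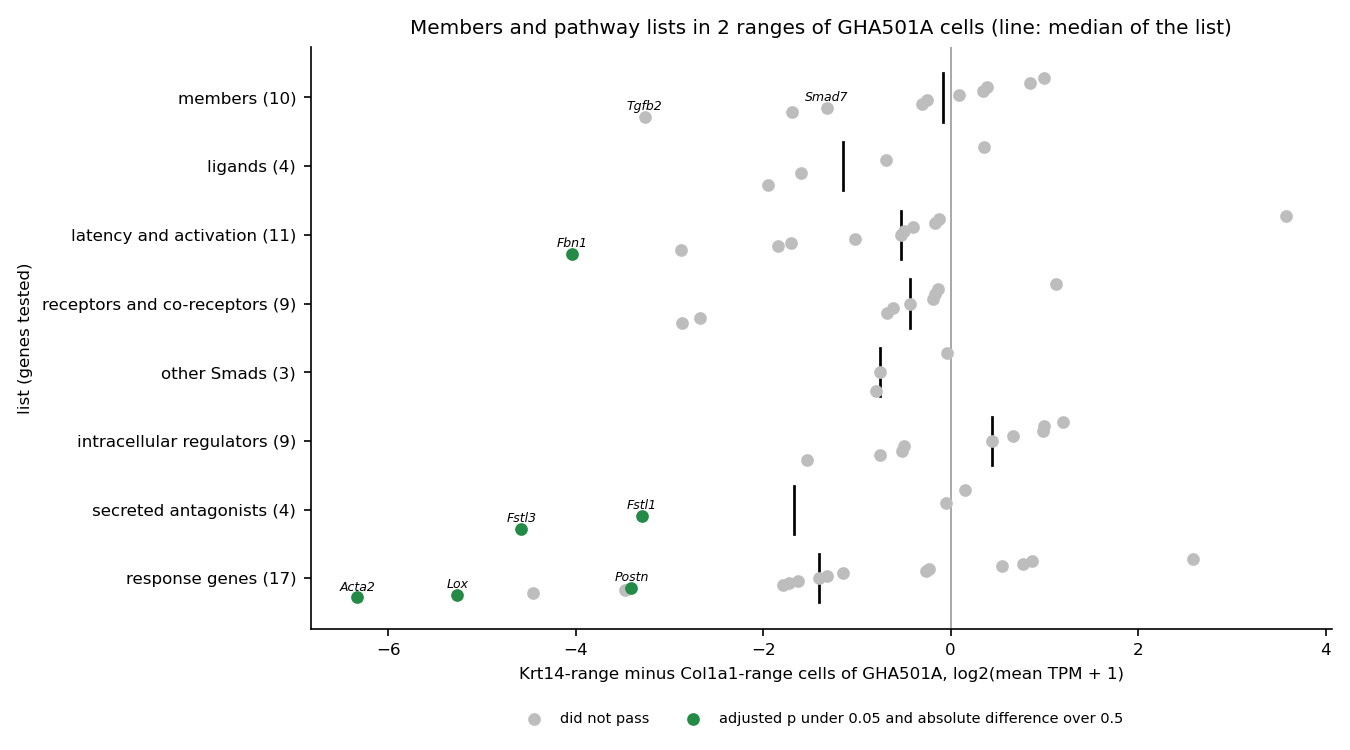
Krt14-range minus Col1a1-range difference in GHA501A on the log2(mean TPM + 1) scale, for the 10 members and the 57 genes of 7 pathway lists, with a line at each list's median. The 6 genes that passed (green) are all lower in the Krt14 range, and Tgfb2 at -3.26 is the lowest member.

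The last comparison set the Krt14-range cells of AG beside those of GHA501A, so that the range was shared. It uses the AG sets of the second and the GHA501A cells of the third comparison and is not independent of either. Within the shared range the cells still differed. The median Krt14 level was 5242 TPM in AG and 2028 TPM in GHA501A, and Col1a1 was over TPM 1 in 30.9% and 100% of these cells. Tgfb2 was higher in AG by 3.64 (SE 0.55, 95% interval 2.24 to 5.04, limma adjusted p = 0.014). In AG 24 of 64 untreated and 21 of 59 treated Krt14-range cells were over TPM 1, with means of 13.2 and 11.2 TPM, against 0 of 18 in GHA501A. The treated count and mean include the closely alike cells 90 and 91, at 126.1 and 116.9 TPM. Without the AG untreated or the AG treated set the difference was 3.40 or 3.88 and the limma adjusted p 0.161 or 0.135. Because the GHA501A cells are at or near 0, the size depends on the scale: it was 6.37 with a pseudocount of 0.1 and 1.43 with log2 values averaged over cells.

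Tgfbi was higher in AG here as well, by 1.84 (SE 0.44, 0.71 to 2.96, limma adjusted p = 0.045). Its medians in the Krt14 range were 70.2 and 129.1 TPM in AG untreated and treated cells and 11.6 and 15.9 TPM in GHA501A. In the treated GHA501A cells 1 of 10 reached 725 TPM and gave 83% of the sum. Without the AG untreated, AG treated or GHA501A untreated set the limma adjusted p was 0.331, 0.258 or 0.123, and the call was lost in 8 of 14 alternatives, these included.

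Members called were 2 higher and 2 lower, against 9.63% and 10.9% of all genes. The 2 lower were Tgfbr2 and Smad2 (limma adjusted p = 0.0089 and 0.011), near 0 in AG. Both passed the gene filter only through GHA501A, so these calls are not read as a difference in expression. Without the AG untreated or the AG treated set the limma adjusted p was 0.142 for Tgfbr2 in both cases and 0.174 or 0.152 for Smad2, and the Smad2 call was also lost with the ranges cut at TPM 30 (0.160). Tgfb3, higher by 2.75 (0.26 to 5.24), and Smad7, higher by 1.37 (0.08 to 2.67), did not pass (limma adjusted p = 0.111 and 0.122). The median of the members was 0.64 and that of all genes 0.24.

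Of the 57 other pathway genes, 12 were higher and 10 lower in the Krt14-range cells of AG, against 9.63% and 10.9% of all genes. Among the genes called, 4 were near 0 in AG. Thbs1 was higher by 6.19 (SE 0.98, limma adjusted p = 0.016), Acta2 by 5.89 (SE 0.37, 0.0022) and Fstl3 by 4.35 (SE 0.69, 0.016). Gdf11, Skil and Trim33, a ubiquitin ligase that acts on Smad4, were called lower (limma adjusted p = 0.011, 0.0030 and 0.012), and each is listed near 0 in AG. As for Tgfbr2 and Smad2, these calls are not read as a difference in expression.

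Across single cells, correlations between the members were low. Spearman's rho was taken within each set of 64 to 71 cells and averaged over the 4 sets, as a description of cells that share a library set and a fixed TPM total. Of the 21 pairs of the 7 members seen in both series, Tgfbr1 and Smad3 had the highest mean rho, 0.31, with 0.24, 0.24, 0.40 and 0.36 in AG untreated, AG treated, GHA501A untreated and GHA501A treated cells. The other 20 pairs lay between -0.05 and 0.17. For the 24 pairs that hold Tgfb1, Tgfbr2 or Smad2, which are near 0 in AG, the mean over the 2 GHA501A sets was -0.14 to 0.19. The number of genes over TPM 1 per cell had a mean rho of 0.19 with Tgfbr1 and 0.17 with Smad3.

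**Figure D5:**
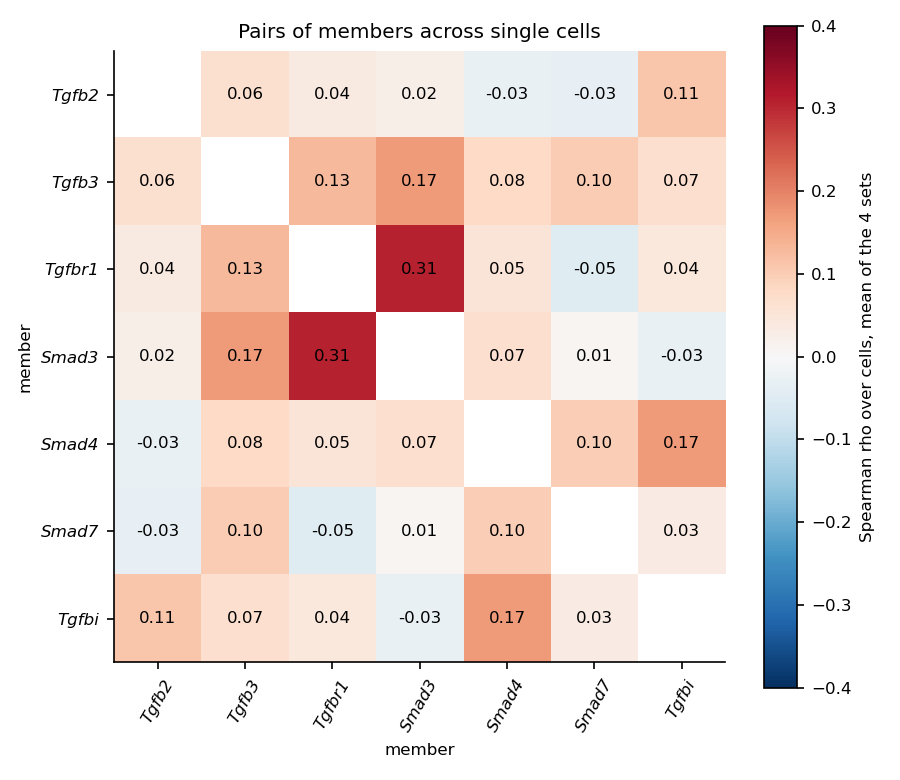
Spearman's rho across single cells between each pair of the 7 members seen in both series, averaged over the 4 library sets. The pair of Tgfbr1 and Smad3 stands at 0.31, and the other 20 pairs lie between -0.05 and 0.17.

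The genes most like each member, with a mean rho of at least 0.3, were few. Tgfb2 went with Fstl1 (0.43), Cthrc1 (0.37) and Enpp2 (0.33), and Tgfbi with Cpe (0.35), Ctsl (0.33) and Col17a1 (0.31). For Fstl1, rho with Tgfb2 was 0.43, 0.55, 0.41 and 0.33 in AG untreated, AG treated, GHA501A untreated and GHA501A treated cells. Col17a1 went with Tgfbi in AG untreated and treated cells (0.47 and 0.63) and hardly in GHA501A (-0.01 and 0.12). Tgfbr1 went with Ndst1 (0.31), and Smad7 with Zfp36l2 (0.31) and Slf1 (0.30). Tgfbr2 went with Plxnb2 (0.41), with 0.38 and 0.33 in GHA501A untreated and treated cells, whereas the 0.43 and 0.48 in AG rest on 5 of 66 and 4 of 64 cells with Tgfbr2 above 0. Smad2 went with Pcbp2 (0.35), but its 0.80 in AG untreated cells rests on the 4.55% of cells in which Smad2 was above 0. Tgfb3 and Smad4 had no gene at 0.3.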

How the data were processed

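The deposited values are TPM of single mouse cells on a scale that sums to 1000000 per cell. Per the methods and the processing notes, the authors used FastQC and cutadapt on the reads, TopHat for alignment to GRCm38 without reads that mapped more than once, and featureCounts for gene counts, from which TPM were made. TPM carries no depth, so how precise a low value is cannot be given. Versions are not given in the sources used here. Groups came from the labels of 278 cells. The 8 cells with conflicting labels entered only as an alternative, and 16 further columns of the table matched no label and were not used.

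The 270 cells analysed were averaged within the 4 library sets, or within a range of cells in a set, since cells are not replicates. The 12355 genes that exceeded TPM 1 in more than 5 cells were fitted together with limma 3.58.1 in R 4.3.3 on log2(mean TPM + 1), with empirical Bayes and a mean-variance trend, two-sided, with Benjamini-Hochberg adjustment over all of them. The block was the series for treatment, and treatment for the other comparisons. Both range comparisons came from the same fit, over the means of AG Krt14-range, GHA501A Krt14-range and GHA501A Col1a1-range cells. Only the alternative with the library set as a block used GHA501A alone. Fits were tested on simulated data in which few genes were changed. The smaller sizes of change tried were not recovered with so few means, and the largest only in part. Where many genes were called, as between the series, differences below the largest size tried did pass. The simulated outcome therefore covers only settings in which few genes change. A member that did not pass may still have changed. Shares have Wilson 95% intervals, and the limit for a share of 0 is 3 cells of the total. Figures were drawn with matplotlib 3.10.9, and other steps used scipy 1.17.1, pandas 2.3.3 and numpy 2.4.6 in Python 3.11.15. Gene positions came from GENCODE M21 and upstream windows from RefSeq; those of Tgfb3, Smad2, Smad4 and Smad7 were not used here.

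The members and lists were chosen with earlier results of these data known. Of 68 list genes 61 were in the table and 57 tested, and of 40 cell type markers 25 were in the table. The markers of smooth muscle, endothelial, immune and Schwann cells had a median summed level of 0 in every set, and those of melanocytes at most 12.6 TPM. The genes named are all members, up to 3 list genes in each direction with the largest difference past both thresholds, and up to 3 genes of highest mean rho (at least 0.3) for each member seen in at least 25% of cells, among genes seen in that share. Alternatives changed the pseudocount, the gene filter, the averaging, the trend, the block, the cut of the ranges, the 8 cells and each set in turn. Leaving out the genes listed in 1 series only, with rescaling, was chosen after seeing the data.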

Additional observations from a re-analysis of the deposited data

Results flagged for a closer look

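Treated minus untreated differences of 6 members pointed in opposite directions in the 2 series, on the log2(mean TPM + 1) scale. The difference between the series was not tested, since each holds 1 pair of sets. Tgfbr1 was lower in treated AG cells by -1.62 and higher in GHA501A by 0.14. In AG untreated cells 1 cell gave 38% of the Tgfbr1 sum, and its part in the difference was not tested. Tgfb3 was at -0.40 in AG and 0.79 in GHA501A, Smad3 at -0.38 and 0.73, and Tgfb2 at -0.24 and 0.49. Tgfbr2 was at -0.20 and 0.58 and Smad2 at 0.11 and -0.13, where the AG values come from levels near 0. With log2(TPM + 1) averaged over cells, Tgfb3 in AG was at 2.94 in untreated and 2.93 in treated cells. On that scale Tgfb2 rose in AG (1.44 to 1.52) and Smad3 still fell (4.76 to 4.32).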

How the results depend on the processing

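Depth is unknown for TPM, and 4 sets with 1 per series and condition give wide intervals; the limits below are those of these fits. For treated against untreated cells, limma called 0 genes, and 5 (4 higher, 1 lower) when log2(TPM + 1) was averaged over cells. With that averaging Smad3 was at -0.0025, Smad4 at 0.10 and Smad7 at -0.024, and with a pseudocount of 0.1 Tgfbr2 was at -0.120 and Smad2 at 0.253, all with turned direction and an adjusted p of 0.999. With each set left out in turn and no replicate block, the differences ran from -2.031 to 2.406 for Tgfbr2, -2.082 to 2.066 for Smad2, -0.774 to 1.163 for Tgfb3, -0.294 to 0.539 for Tgfb2, -0.451 to 0.810 for Smad3, -0.302 to 1.106 for Tgfbi and -0.0015 to 0.072 for Smad7.

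For AG against GHA501A, 4162 genes were called (1677 higher, 2485 lower), 6305 with log2 values averaged (3378 higher, 2927 lower, median of all genes 0.11), and 1865 to 2677 with each set left out; Tgfb2 was at -0.164 under the former, and Tgfbr1 at 0.590 without the AG treated set. Krt14-range against Col1a1-range cells gave 342 genes, 524 with genes detected in at least 10% of cells, 32 with no filter (26 higher, 6 lower), 577 with log2 values averaged, 217 with ranges cut at TPM 30, and 0 with each set left out or with the library set as a replicate block. With log2 values averaged Smad4 was at 0.897. With the cut at 30, Tgfbr1 was at -0.275, Smad2 at -1.032, Smad3 at -0.341 and Tgfbi at 0.199, and with the cut at 300 Smad3 was at -0.134. With each set left out the differences ran from -0.764 to 0.931 for Smad3, -1.31 to 0.704 for Smad4, -0.980 to 0.473 for Tgfbi and -0.493 to 1.19 for Tgfbr1. Tgfb2 stayed below 0 in all 13 alternatives, from -5.966 to -1.778, and passed the threshold in 4 (adjusted p 0.023 to 0.037). Krt14-range cells of AG against GHA501A gave 2535 genes, and 299 to 2821 with each set left out; Tgfbr1 was at 0.111 with the cut at 30, and from -1.64 to 0.561 with each set left out. The cause of these changes was not tested.

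The labels give no replicate numbers for the sets. Without the replicate block, treated against untreated called 0, AG against GHA501A 4177 and the Krt14-range comparison of the series 2996 genes, with Tgfb3 at an adjusted p of 0.050 in the second and Tgfbi at 0.059 in the third.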
